A study of Mus musculus with 4 samples.

Results

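Cortex of wildtype mice kept awake was compared with cortex of wildtype littermates left undisturbed, across 13550 of the 39179 genes in the deposited table, those whose normalised counts averaged 50 or more in the 4 libraries of the series. The comparison rests on 2 of these libraries, chosen by their labels: WT BL (baseline) and WT SD (sleep deprivation). All animals were F1 C57Bl6/J x Sv129 hybrids under a regular light and dark cycle. The mice of the WT SD pool were kept awake by gentle handling for 4 h, beginning when the lights came on, and cortex of both groups was frozen at ZT4, which is 4 h after light onset. The other 2 libraries, KO BL and KO SD, came from littermates that lack the BK channel, a calcium- and voltage-gated potassium channel, under the same conditions, and are given beside the wildtype values for orientation. Each library was made from total RNA pooled over 4 animals, so each group has 1 library, there is no replicate, and no test of a difference was possible. The labels used here give neither sex nor age. Kcnma1, which codes for the pore of the BK channel, stood at 614, 177, 447 and 491 normalised counts in WT BL, WT SD, KO BL and KO SD, so that this gene did not separate the genotypes, and the library names are those of the labels.

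Sleep loss is known as a strong inducer of immediate-early genes in cortex, the transcription factors and synaptic regulators that neurons switch on within minutes of firing. Longer waking also calls on chaperones of the cytosol and endoplasmic reticulum, on stress hormone targets, and on genes of protein synthesis and energy metabolism, whose demand differs between waking and sleep. The gene lists below follow these roles, from early factors through stress responses and housekeeping machines to channels, receptors and peptides. Higher and lower below stand for a difference of at least 1.5-fold between the deposited values, each raised by 1, and differences are given on the log2 scale, where 1.5-fold is 0.58. Because the difference moved with gene properties, each is accompanied where needed by a corrected difference, from which a smooth trend with GC content and gene width (the length in bp that the table lists for each gene) was removed. Values of the 4 libraries are given throughout in the order WT BL, WT SD, KO BL and KO SD, as normalised counts.

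The markers of cortex were present in all 4 libraries. Slc17a7, the vesicular glutamate transporter of cortical excitatory neurons, stood at 32390, 24900, 52110 and 27660 normalised counts in WT BL, WT SD, KO BL and KO SD. Tbr1, a factor of cortical projection neurons, stood at 5577, 5914, 4438 and 5190. Of 8 choroid plexus and ependyma markers only 3 were compared, the others having means under 50, and Ttr, the thyroid hormone carrier of choroid plexus, was at 25.25 in WT BL and 23.75 in WT SD. In wildtype the summed values of the marker lists were 250100 in WT BL and 213700 in WT SD for 12 excitatory neuron genes, 33770 and 44550 for 12 inhibitory neuron genes, and 278900 and 300000 for 12 astrocyte genes. For 12 oligodendrocyte genes they were 40480 and 75530, for 12 microglia genes 20460 and 29440, for 10 endothelial genes 11140 and 11600, and for 12 genes of pericytes, smooth muscle and meninges 15740 and 10910. No gene of these 7 lists was listed at 0 in both wildtype libraries. Such sums follow the most abundant genes of a list. The median differences over genes were -0.24, -0.34, 0.28, 0.53, 0.98, -0.58 and -0.27 for the 7 lists in the order given. For inhibitory neurons and endothelium the sum was larger in WT SD although the median was below 0. The oligodendrocyte sums were 68430 in KO BL and 69660 in KO SD, so that WT BL was the lowest library there. In such bulk RNA, fewer cells of a type and less RNA per cell cannot be told apart, and the part of cell makeup in the results below was not tested.

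Set against WT BL, the WT SD library had 3321 (24.5%) of the 13550 genes higher and 3259 (24.1%) lower. Corrected, the counts were 2486 (18.3%) higher and 2474 (18.3%) lower, of which 1829 and 1872 were on that side in both versions. With the libraries scaled to equal totals instead, the median over all genes was -0.20, the counts became 2663 higher and 4255 lower, and the higher ones made up 38.5% of the called genes against 50.5% as deposited. These shares are the background for every count of a list. The wildtype libraries summed to 34.49 M and 38.73 M normalised counts, or an estimated 30.05 M and 34.86 M reads. For a gene at the level of Fosb the 95% counting interval of the difference ran from 1.43 to 1.82 around 1.62. These exact binomial intervals cover counting error only, not the spread between animals, pools or library preparations.

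The difference between the wildtype libraries followed both gene width and GC content. Across genes, which are not independent replicates, its rank correlation was -0.49 with width and 0.33 with GC content, against 0.06 and -0.71 in the knockout pair. Among the genes of the smallest of 5 width classes of equal size (median 921 bp) the median difference was 0.79, and 59.4% were higher and 6.3% lower. Among those of the largest (median 4468 bp) the median was -0.48, with 5.6% higher and 42.9% lower. The class lowest in GC content had a median of -0.28 and the class highest in it 0.52. In short genes of high GC content the median reached 1.21, and in long genes of moderately low GC content it was -0.67. The knockout pair behaved differently along width: its medians lay between -0.10 and 0.05 in 5 width classes of equal size, while along GC content they ran from 0.59 in the lowest class to -0.54 in the highest. The spread of the corrected differences, as the median absolute deviation, was 0.43 in the wildtype pair and 0.25 in the knockout pair.

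**Figure D1:**
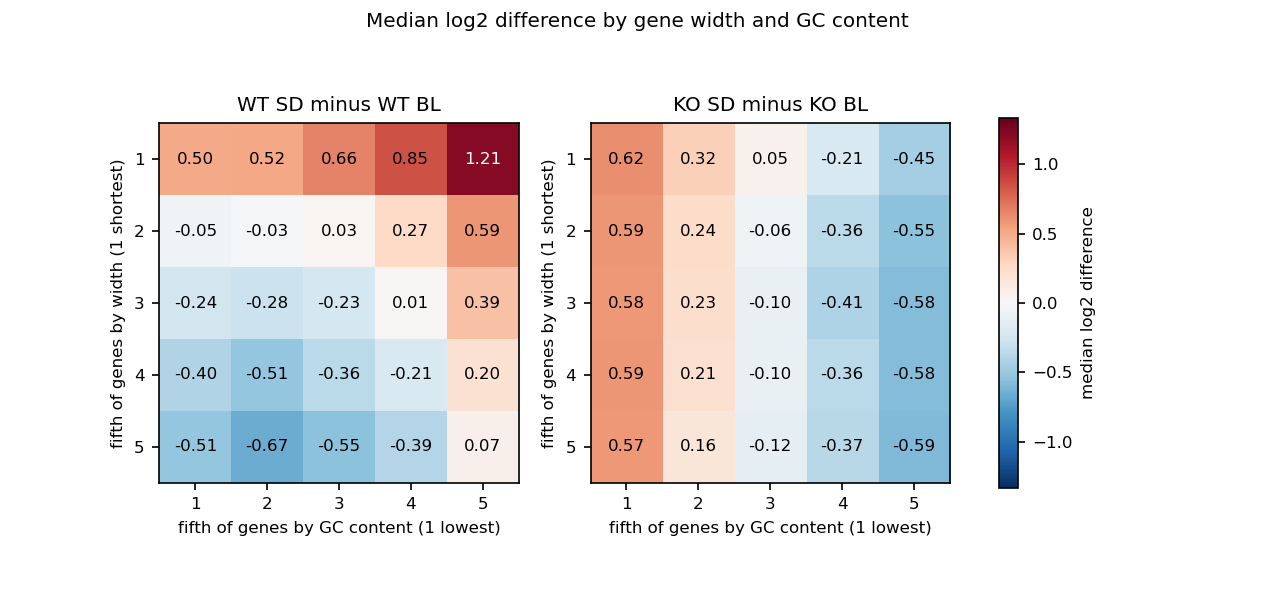
Median log2 difference (colour and printed number) of genes grouped in 5 equal classes of deposited width (vertical) and GC content (horizontal), for WT SD minus WT BL on the left and KO SD minus KO BL on the right. In the wildtype pair the medians run from 1.21 for short GC-rich genes to -0.67 for long genes in the second column, whereas the knockout medians change mainly from left to right.

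WT SD also stood apart from all other libraries in single genes. For 241 genes (1.78% of those compared) WT SD stood at 0.25 or less of the lowest of the other 3 libraries, against 11, 7 and 4 genes for the same measure in WT BL, KO BL and KO SD. At the other end WT SD stood at 4 times or more of the highest other library for 56 genes (0.413%), against 2, 1 and 1. This measure was chosen after the values were seen and is a description. The 241 low genes had a median longest annotated transcript of 4317 bp and a median longest 3' UTR of 2140 bp, against 3469 and 1444 bp over all genes compared, and 198 of them were protein-coding. The 56 high genes were short, with a median longest transcript of 754 bp, and 17 of them were pseudogenes. Among protein-coding genes, in 5 equal classes of annotated 3' UTR length, 0.74% of the class with the shortest were in the low set and 2.67% of the class with the longest. Which RNA or library step these features come from was not tested.

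The AP-1 family, dimers of Fos and Jun proteins that neurons induce within minutes, was on the higher side. Of 9 AP-1 and small Maf genes compared, 6 were higher and none lower, and 5 higher and 1 lower when corrected, around a median of 0.94 (corrected 1.16), beside a median over all genes of -0.04 (corrected 0.01). Fosb stood at 326, 1003, 584 and 707.5 normalised counts in WT BL, WT SD, KO BL and KO SD. It was higher after sleep deprivation by 1.62 in wildtype (corrected 1.79), and its WT SD value was the highest of the 4. Fos itself stood at 899.8, 1727, 930.5 and 1241. Its difference of 0.94 was 0.36 when corrected, under the 1.5-fold line. Fosl2, a slower Fos relative, stood at 1129, 1723, 1062 and 2086. Its 0.61 became 1.16 when corrected, and the sleep-deprived library was the higher in both genotypes.

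The Jun genes divided. Junb, a Jun protein that restrains c-Jun, stood at 286, 1217, 936 and 349 normalised counts in WT BL, WT SD, KO BL and KO SD. WT SD was highest, but KO BL lay well above KO SD, so that the difference was 2.09 in wildtype and -1.42 in knockout. Jund stood at 1050, 4689, 1951 and 1530, 2.16 higher in wildtype (corrected 1.61). Jun stood at 888.5, 841, 1102 and 773.5 and differed by -0.08 in wildtype. Among the small Maf proteins, which pair with AP-1 factors, Maff was at 18.4, 91.5, 30.05 and 68.4. It was higher in both sleep-deprived libraries, by 2.26 in wildtype, whereas Mafg and Mafk differed by 0.08 and 0.41. Jun, Junb, Jund, Mafg and Mafk share exons with other annotated genes, so their reads are less surely assigned.

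Of 9 Egr, Nr4a and Nab genes 5 were higher and 1 lower, and 6 higher and 2 lower when corrected; the median was 1.17 (corrected 0.96). The orphan receptors of the Nr4a family, which bind DNA without a known ligand and are classical early genes, were all higher. Nr4a1 (chr15:101266846-101274792 in the deposited table, build GRCm38) stood at 1951, 4663, 3278 and 3231 normalised counts in WT BL, WT SD, KO BL and KO SD. Its wildtype difference was 1.26 (corrected 1.16), but KO BL and KO SD were almost level. Nr4a2 (chr2:57106830-57124003) stood at 239, 968, 367 and 1635. Nr4a3 (chr4:48045153-48086447) stood at 406, 1473, 484 and 1452. These 2 receptors had both sleep-deprived libraries above both baselines, with differences of 2.01 and 1.86 in wildtype and 2.15 and 1.58 in knockout.

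The start regions of the 3 Nr4a genes are shown because all 3 were higher together in wildtype and because CREB, the factor that couples calcium and cAMP to early genes, is known to act through the cAMP response element, a palindrome in which the core TGACG is followed by TCA. The sequences are RefSeq promoters of build GRCm38.p6, from 250 bases before to 50 bases after the start, read 5′ to 3′ on the gene's strand: chr15:101266596-101266895 on the plus strand for Nr4a1, chr2:57123954-57124253 on the minus strand for Nr4a2 and chr4:48045055-48045354 on the plus strand for Nr4a3. Capitals mark TGACG on either strand.
Nr4a1: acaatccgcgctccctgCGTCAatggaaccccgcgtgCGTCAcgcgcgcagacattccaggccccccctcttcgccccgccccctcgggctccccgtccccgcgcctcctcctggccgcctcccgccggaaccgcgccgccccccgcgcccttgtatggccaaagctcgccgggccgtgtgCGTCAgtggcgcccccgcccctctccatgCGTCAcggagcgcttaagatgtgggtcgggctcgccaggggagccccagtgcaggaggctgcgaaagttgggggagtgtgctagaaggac
Nr4a2: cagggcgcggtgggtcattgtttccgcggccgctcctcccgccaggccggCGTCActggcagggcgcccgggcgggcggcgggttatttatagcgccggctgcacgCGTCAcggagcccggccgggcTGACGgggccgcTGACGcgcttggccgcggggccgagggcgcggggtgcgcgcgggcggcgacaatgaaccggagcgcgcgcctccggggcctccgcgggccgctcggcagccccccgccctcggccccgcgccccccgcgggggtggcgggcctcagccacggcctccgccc
Nr4a3: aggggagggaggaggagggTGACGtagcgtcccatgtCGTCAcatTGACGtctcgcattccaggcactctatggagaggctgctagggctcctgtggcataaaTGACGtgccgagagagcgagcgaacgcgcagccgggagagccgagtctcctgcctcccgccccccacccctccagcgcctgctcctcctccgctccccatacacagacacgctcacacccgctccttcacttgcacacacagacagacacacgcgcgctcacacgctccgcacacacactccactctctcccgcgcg
Each of the 3 holds 4 matches to TGACG, counted on both strands, and none holds the full palindrome. Over all 32851 promoters of the table, 20.8% hold TGACG in at least 1 copy, 0.231% in at least 4, and 1.79% hold the palindrome. The core was not a mark of the higher genes as a class. Of 32 activity-induced factors with a promoter in the table and a compared value, 11 of the 19 that were higher and 9 of the 13 that were not held at least 1 match, and Coq10b, also with 4 matches, differed by 0.29. A match of letters does not show a site in use.

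The Egr zinc-finger factors, which carry early signals on to synaptic genes, split. Egr4 stood at 258, 1289, 432 and 347 normalised counts in WT BL, WT SD, KO BL and KO SD. It was 2.32 higher in wildtype (corrected 0.97), with WT SD far above the other 3 libraries. Egr2 stood at 302.5, 682, 351 and 514, a difference of 1.17 (corrected 0.96). Egr1, the commonly used marker of activated neurons, stood at 9475, 13420, 10570 and 11060, and its difference was 0.50 as deposited, under 1.5-fold, and 0.73 when corrected. Egr3 went the other way, at 413, 18.9, 696 and 801. Its WT SD value was the only low one of the 4 libraries, and Egr3 is among the 241 genes described above. The corepressors Nab1 and Nab2, which bind Egr proteins and damp them, differed by 0.13 and -0.23.

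Of 22 other activity-induced factors 10 were higher and 2 lower, and 10 higher and 3 lower when corrected; the median was 0.43 (corrected 0.51). Crem, which yields the inducible cAMP repressor ICER, stood at 626, 1545, 489 and 1434 normalised counts in WT BL, WT SD, KO BL and KO SD. Both sleep-deprived libraries lay above both baselines, by 1.30 in wildtype (corrected 1.25) and 1.55 in knockout. Sertad1, a regulator of the cell cycle kinase Cdk4, stood at 218, 1664, 362 and 399.7. WT SD was more than 4 times any other library, and the difference of 2.92 was 1.06 when corrected. Klf2, a zinc-finger factor, was at 174 and 569 in WT BL and WT SD, Arid5a, a DNA- and RNA-binding regulator, at 142 and 380, and Ier2, an early nuclear protein, at 163 and 449. Their differences were 1.71, 1.41 and 1.46. Npas4, the neuronal factor that responds selectively to calcium entry, stood at 419.8, 354, 759 and 524, so that neither genotype had a higher value after sleep deprivation. Klf6 and Klf5 were lower, at 1989 in WT BL and 935 in WT SD and at 68.9 in WT BL and 29 in WT SD. Only 1 of the 2 was also lower when corrected.

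**Figure D2:**
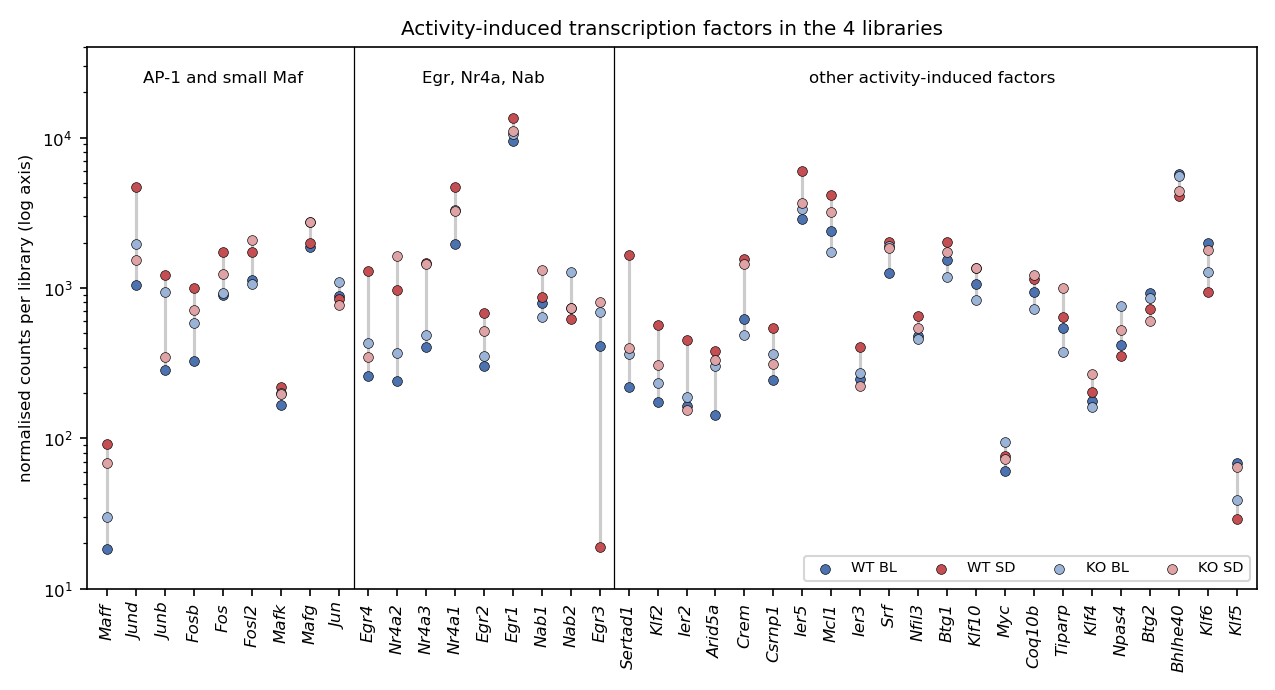
Normalised counts (log axis) of 40 activity-induced transcription factor genes in the 4 libraries, ordered within 3 groups by the wildtype difference, each point being 1 library. Red points (WT SD) top most columns at the left of each group, while Egr3 has WT SD at 18.9 and the other 3 libraries between 413 and 801.

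Synaptic and secreted effectors of activity followed, with 14 of 30 higher and 2 lower, 11 higher and 1 lower when corrected, and a median of 0.48 (corrected 0.35). Arc, whose product internalises AMPA receptors, stood at 4207, 11010, 7348 and 14370 normalised counts in WT BL, WT SD, KO BL and KO SD. Its values were higher in both sleep-deprived libraries, 1.39 in wildtype (corrected 1.21). Homer1, which codes for a scaffold of metabotropic receptors and an activity-induced short form, stood at 6421, 9724, 4051 and 15300, 0.60 higher in wildtype and 1.92 in knockout. Bdnf, the neurotrophin, stood at 1017, 1825, 838 and 2020, 0.84 higher (corrected 1.29). These 3 had the sleep-deprived pool above the baseline pool in each genotype. Vgf, a secreted peptide precursor, stood at 2116, 10440, 5335 and 4448 and Nptx2, an organiser of AMPA receptors on interneurons, at 1842, 5222, 2882 and 3379. Both had WT SD highest, and KO BL of Vgf exceeded KO SD. Of the Gadd45 stress genes Gadd45g was at 80.5 in WT BL and 431 in WT SD and Gadd45a at 103 in WT BL and 414 in WT SD, while their KO values were 181 and 105 for Gadd45g and 97.65 and 243 for Gadd45a. The salt-inducible kinase Sik1 was 1.11 higher, from 167.5 to 362, while its relatives Sik2 and Sik3, the latter linked to sleep need in mice, differed by -0.21 and -0.20. Ptgs2, the inducible prostaglandin synthase, stood at 500.4, 477, 368 and 1108, level in wildtype and 1.59 higher in knockout. The lower effectors were Rgs4, which shortens G-protein signals, at 37530 in WT BL and 19480 in WT SD, and the potassium channel Kcna1 at 6583 in WT BL and 3892 in WT SD, whose corrected differences were -0.64 and -0.06.

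Feedback inhibitors of the MAP kinase pathway, phosphatases and adaptors that early signals induce against themselves, were mostly within 1.5-fold: 3 of 19 were higher and 1 lower, and 7 were higher and 1 lower when corrected. Dusp5, a nuclear ERK phosphatase, stood at 373, 1119, 506 and 662 normalised counts in WT BL, WT SD, KO BL and KO SD. Dusp2, of the same class, stood at 28.7, 97.3, 55.1 and 26.3. Their wildtype differences were 1.58 and 1.73. Dusp6, the cytosolic ERK phosphatase, stood at 2597, 3677, 1925 and 3431, and its 0.50 became 0.93 when corrected. Trib1 was 0.76 higher, and Errfi1, an inhibitor of the EGF receptor, was the lower member (-0.61, corrected -0.39).

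Clock genes were mixed. Of 23, 3 were higher and 4 lower, and 5 higher and 6 lower when corrected; the median was -0.16 (corrected -0.22). The repressors Per1, Per2 and Cry1, which close the feedback loop of the clock, were at 1054 and 1702, 553 and 793 and 647.5 and 1041 in WT BL and WT SD. Per1 and Cry1 passed 1.5-fold (0.69 and 0.68), Per2 at 0.52 did so only when corrected (0.91), and in knockout Per1 went from 2215 to 1485. Per3 was lower (-0.89, corrected -0.44), as was the output factor Hlf, at 12080, 5904, 8441 and 8917 normalised counts in WT BL, WT SD, KO BL and KO SD. The activators Clock and Arntl were lower (-0.85 and -0.70), but within 1.5-fold when corrected (-0.22 and -0.24). Dbp, an output factor often used as a marker of sleep loss, stood at 1363, 1954, 2137 and 1005, a difference of 0.52 in wildtype and -1.09 in knockout. Cirbp, an RNA-binding protein induced by lower temperature, stood at 1614, 1573, 2118 and 1068. Its difference was -0.04 as deposited and -1.32 when corrected, so that it was lower only relative to genes of like width and GC content. Rbm3, of the same family, was at 3092 in WT BL and 4244 in WT SD.

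Among 23 heat shock chaperones 8 were higher and 1 lower as deposited, and 8 higher and 0 lower when corrected. The small chaperone Hspb1 stood at 120.5, 773, 244 and 327 normalised counts in WT BL, WT SD, KO BL and KO SD. Hspe1, the mitochondrial co-chaperonin, stood at 2138, 7609, 1875 and 3283. Both had WT SD highest, by 2.67 and 1.83 over WT BL (corrected 1.24 and 1.27). Dnajb5, a co-chaperone, at 3340 in WT BL and 7397 in WT SD, and Bag3, which guides clients to autophagy, at 187 in WT BL and 364 in WT SD, were 1.15 and 0.95 higher, with almost the same values when corrected (1.15 and 0.94). The abundant Hspa8 and Hsp90ab1 differed by 0.19 and 0.16. Hspd1, partner of Hspe1, was at 6698 in WT BL and 6684 in WT SD, so that only 1 gene of the chaperonin pair differed. Hspa4l was the lower member (-0.69, corrected -0.29).

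In the endoplasmic reticulum 6 of 21 genes were higher and 3 lower as deposited, and 7 higher and 3 lower when corrected. The stress factors Atf4 and Ddit3, which act downstream of stalled translation, stood at 3786, 8541, 3647 and 4824 normalised counts in WT BL, WT SD, KO BL and KO SD and at 466, 2167, 625.5 and 813. They were 1.17 and 2.21 higher in wildtype (corrected 1.06 and 1.40). Sdf2l1 and Creld2, small luminal proteins of the unfolded protein response, were at 271 in WT BL and 1150 in WT SD and at 395 in WT BL and 1498 in WT SD, and their KO SD values of 679.8 and 819.5 also exceeded those of KO BL, 406.5 and 484. Hspa5, the chief chaperone of the lumen and a common marker of sleep loss, stood at 10740, 15230, 9435 and 18300. Its difference was 0.50 in wildtype, under 1.5-fold, and 0.96 in knockout. Hyou1, a partner of Hspa5, and Dnajb9, one of its co-chaperones, were lower, at 3292 in WT BL and 1464 in WT SD and at 1654 in WT BL and 736 in WT SD, and the sensor Atf6 was at 4126 in WT BL and 2293 in WT SD. Of these 3 genes, 2 were also lower when corrected, among them Dnajb9 (-0.975).

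Glucocorticoid-responsive genes and metallothioneins held 12 higher and 7 lower of 23 as deposited and 9 higher and 4 lower when corrected (medians 0.61 and 0.29). The metal-binding metallothioneins stood out. Mt1 (chr8:94179089-94180325) stood at 2148, 18400, 4234 and 4267 normalised counts in WT BL, WT SD, KO BL and KO SD. Mt2 (chr8:94172618-94173567) stood at 1154, 10270, 2063 and 2497. Mt3 (chr8:94152607-94154148) stood at 3161, 29380, 6213 and 6371. For all 3, WT SD was more than 4 times every other library, the wildtype differences being 3.10, 3.15 and 3.22, while the knockout pools differed by 0.01, 0.28 and 0.04. These are among the shortest coding transcripts, and the corrected wildtype differences were 1.36, 1.52 and 1.05.

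The promoters of the neighbours Mt1 and Mt2 are shown because metallothioneins are the textbook targets of metal response elements, whose core TGCNCNC is bound by the zinc-sensing factor Mtf1. Both lie on the plus strand of GRCm38.p6, at chr8:94178839-94179138 for Mt1 and chr8:94172368-94172667 for Mt2, from 250 bases before to 50 bases after the RefSeq start, and capitals mark TGCNCNC on either strand.
Mt1: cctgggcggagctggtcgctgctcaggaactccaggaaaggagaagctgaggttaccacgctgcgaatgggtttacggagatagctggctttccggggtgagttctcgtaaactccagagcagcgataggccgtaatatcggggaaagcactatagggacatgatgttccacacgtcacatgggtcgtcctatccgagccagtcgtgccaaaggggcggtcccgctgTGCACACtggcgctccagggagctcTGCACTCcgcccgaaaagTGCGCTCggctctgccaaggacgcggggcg
Mt2: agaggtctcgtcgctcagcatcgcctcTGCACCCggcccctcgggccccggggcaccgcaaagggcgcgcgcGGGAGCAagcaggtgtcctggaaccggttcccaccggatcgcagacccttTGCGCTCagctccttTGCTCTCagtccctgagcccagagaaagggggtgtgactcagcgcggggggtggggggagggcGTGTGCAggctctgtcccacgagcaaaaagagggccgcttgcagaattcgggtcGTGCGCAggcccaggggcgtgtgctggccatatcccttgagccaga
The Mt1 promoter holds 3 matches and the Mt2 promoter 6, counted on both strands with overlaps allowed. At least 1 match is found in 51.0% of all promoters, at least 3 in 7.10% and at least 6 in 0.225%. The Mt3 promoter also holds 3.

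The other stress hormone targets went both ways. Tsc22d3, the glucocorticoid-induced leucine zipper, stood at 2238, 8093, 1980 and 4324 normalised counts in WT BL, WT SD, KO BL and KO SD. It was higher after sleep deprivation in both genotypes, by 1.85 in wildtype (corrected 1.91) and 1.13 in knockout. Fkbp5, a cochaperone that weakens the glucocorticoid receptor, stood at 678, 1264, 1027 and 813, 0.90 higher in wildtype (corrected 1.26). Cdkn1a, an inhibitor of the cell cycle, stood at 628, 2305, 833 and 1335, 1.87 higher (corrected 1.21). Sgk1, a kinase named for its induction by glucocorticoids, was level at 2019 in WT BL and 2071 in WT SD. Klf9, a zinc-finger target of the receptor, stood at 3262, 847, 2584 and 3263, and Zbtb16, another, at 361, 105, 451.5 and 501. In both, WT SD was far below the other 3 libraries, which lay within 1.5-fold of each other. Nr3c2, the mineralocorticoid receptor, was lower (-1.36, corrected -0.96), as was Nr3c1, the glucocorticoid receptor (-0.59, corrected -0.19).

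All genes of the cytosolic ribosome that were compared were higher in WT SD, 47 of 47 of the large subunit and 30 of 30 of the small subunit. Their medians were 2.15 and 2.12, and 1.10 and 1.13 when corrected, with 37 and 22 higher and none lower. The range was wide, from 0.86 (Rps3a1) to 4.06 (Rpl36). Rpl36 stood at 301, 5032, 1239 and 813 normalised counts in WT BL, WT SD, KO BL and KO SD. Rps21 stood at 2003, 23480, 4157 and 4708. At the other end Rpl4 stood at 15720, 34370, 15280 and 21790. The knockout pools had medians of 0.29 and 0.21 for the same lists. The 2 lists are of short genes, with median widths of 746 and 675 bp against 2015 bp over all genes. Ribosomal protein genes have many processed copies in the genome, and how reads were divided between a gene and its copies was not tested. Rps16, for example, stood at 909, 6327, 149.7 and 542, with KO BL below and WT SD above the other libraries. Rpl41, the smallest ribosomal protein, differed by 3.20 (corrected 1.71), and Rpl3, which has a longer transcript, by 1.34 (corrected 1.19).

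The mitochondrial ribosome, made of nuclear-encoded proteins that translate the mitochondrial genome, had 60 of 77 genes higher and 1 lower, with a median of 1.19 (corrected 0.58, 38 higher and 2 lower). Mrpl33, a small protein of the large subunit, stood at 767, 4473, 815 and 1238 normalised counts in WT BL, WT SD, KO BL and KO SD. Mrpl12, which also binds the mitochondrial RNA polymerase, stood at 949, 4352, 1667 and 1379. Their corrected differences of 2.19 and 1.48 were past 1.5-fold. Mrpl23 stood at 9.3, 638, 85.1 and 60.35, its WT BL value resting on few reads (1 read being 1.148 in that library). Mrps23 was the lower member, at 86.4, 34, 69.3 and 94.9.

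Nuclear genes of the respiratory chain were mostly higher as deposited. For complex I, the entry point of electrons from NADH, 33 of 36 were higher, and for complexes II to V 30 of 37. None was lower in either list. Corrected, 19 and 16 were higher and 0 and 3 lower. Ndufb7 stood at 601, 5422, 1555 and 1048 normalised counts in WT BL, WT SD, KO BL and KO SD. Ndufa2 stood at 793, 8494, 1390 and 1493. Uqcrq of complex III stood at 1042, 9133, 1692 and 1937. These accessory subunits had WT SD well above all other libraries. Not all subunits were higher: Ndufs1 of complex I was at -0.38, Sdha of complex II at -0.08 and Uqcrc2 of complex III at -0.09. Atp5b, the catalytic subunit of ATP synthase, stood at 42880, 33570, 47150 and 38820, -0.35 as deposited and -0.91 when corrected. Thus within 1 enzyme the subunits ranged from -0.35 (Atp5b) to 3.17 (Atp5e).

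Of the 15 mitochondrially encoded transcripts 5 were higher and 7 lower as deposited and 3 higher and 8 lower when corrected (medians -0.39 and -0.85), although they are cut from shared precursors. Over the 5 that share no exon with another gene the median as deposited was 1.37. The ribosomal RNAs were higher, mt-Rnr1 at 147300, 520800, 134400 and 337400 normalised counts in WT BL, WT SD, KO BL and KO SD and mt-Rnr2 at 204600, 768700, 189000 and 482900. The sleep-deprived pool was above the baseline pool in each genotype, by 1.82 and 1.91 in wildtype and 1.33 and 1.35 in knockout. Of the messengers, mt-Nd3 and mt-Co3 were higher in wildtype (1.37 and 0.76), but on the lower side (-0.77 and -0.24) with the trend in width alone removed. mt-Co1 was level at 845500 in WT BL and 842200 in WT SD. Lowest were mt-Atp8 at 93140, 7163, 89310 and 90220, mt-Nd4l at 13150, 2018, 13790 and 19360 and mt-Nd5 at 159200, 30380, 149400 and 172300. For these 3 only WT SD was low, the other libraries being within 1.5-fold of each other. mt-Atp8 overlaps mt-Atp6 and mt-Nd4l overlaps mt-Nd4 in the mitochondrial genome, and the partners mt-Atp6 and mt-Nd4 differed by -0.38 and -1.23. Mitochondrial transcripts as a whole took 13.4% of normalised counts in WT BL and 13.45% in WT SD.

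**Figure D3:**
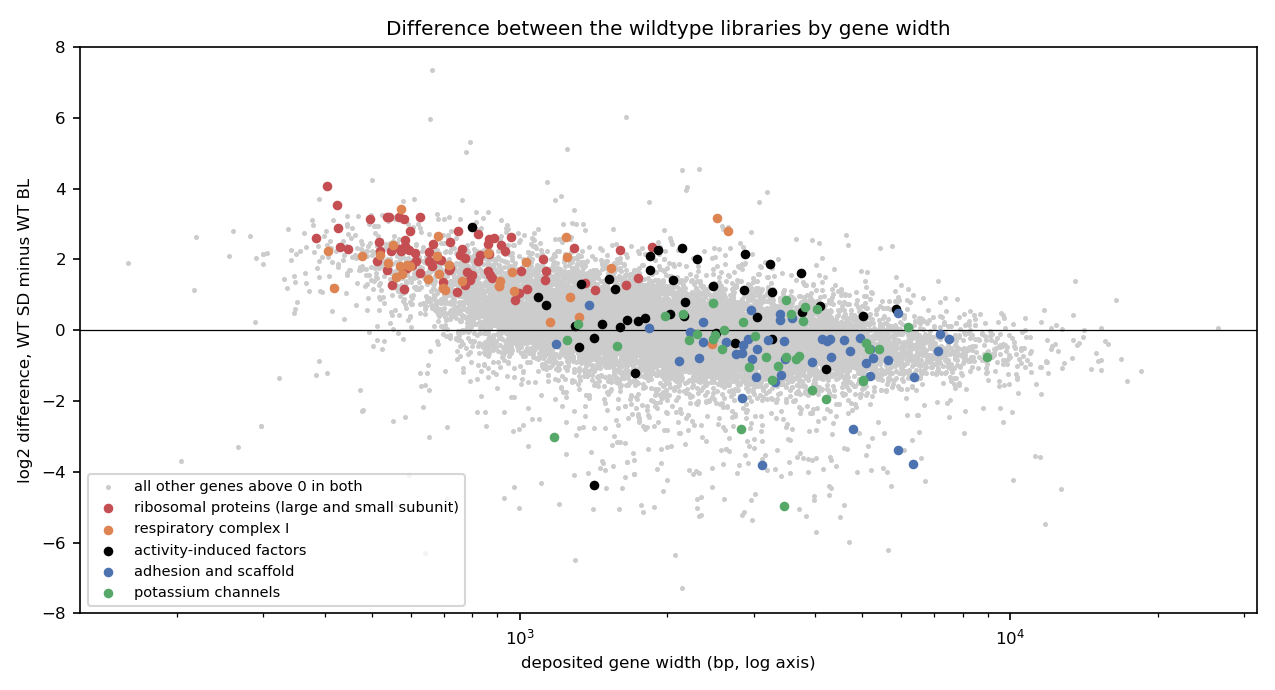
Log2 difference of WT SD minus WT BL (vertical) against deposited gene width in bp (horizontal, log axis) for genes above 0 in both libraries, with 5 groups coloured. Ribosomal and complex I genes lie at small widths and high differences, adhesion and potassium channel genes at large widths and mostly below 0, and activity-induced factors on both sides of 0 at middle widths.

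Other housekeeping machines divided into those with mostly higher subunits and those without. Of 31 proteasome subunits 23 were higher and none lower, and 12 and none when corrected (median 0.81, corrected 0.50). The catalytic-ring subunits Psmb6 and Psmb4 stood at 1856 in WT BL and 7430 in WT SD and at 3262 in WT BL and 12250 in WT SD, and the large base subunits Psmd1 and Psmd2 differed by -0.25 and -0.16. Of 20 Sm and LSm proteins, the rings around spliceosomal RNAs, 18 were higher and none lower, and 12 and none when corrected (median 1.46, corrected 0.63). Lsm7 stood at 203, 1892, 333 and 359.5 normalised counts in WT BL, WT SD, KO BL and KO SD, 3.21 higher (corrected 1.52). Snrpf was 2.15 higher, with 1.73 when corrected. tRNA synthetases, which charge tRNAs with amino acids, had 7 of 37 higher and 4 lower, and 6 higher and 4 lower when corrected, around a median of 0.05. Subunits of the vacuolar proton pump had 4 of 17 higher and 1 lower as deposited, a share near that of all genes, and 2 higher and 4 lower when corrected. The small subunits Atp6v1f and Atp6v1g1 were higher as deposited (1.71 and 1.31, corrected 0.49 and 1.09). The catalytic subunit Atp6v1a, at 17900 in WT BL and 11060 in WT SD, was lower as deposited (-0.69) and within 1.5-fold when corrected (-0.34).

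Among sodium channel subunits, which carry the upstroke of the action potential, 6 of 10 were lower and none higher, and 5 lower and 1 higher when corrected (median -0.83, corrected -0.51). Scn4b, an auxiliary subunit, stood at 5012, 1436, 4684 and 2345 normalised counts in WT BL, WT SD, KO BL and KO SD. It was lower in both sleep-deprived libraries, at -1.80 in wildtype (corrected -1.43). Scn1a, the main channel of fast interneurons, stood at 5593, 2246, 3553 and 3885, and Scn2a (listed as Scn2a1), a channel of axon initial segments, at 10180, 4090, 6984 and 6835. Both differed by -1.32 in wildtype, with corrected values of -0.71 and -0.75, and by 0.13 and -0.03 in knockout. Scn8a, another pore subunit, differed by -0.29.

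Potassium channels had 15 of 38 lower and 4 higher, and 12 lower and 6 higher when corrected. Kcna2, a delayed rectifier of axons whose loss in mice reduces sleep, stood at 529.6, 16.1, 303 and 175 normalised counts in WT BL, WT SD, KO BL and KO SD. Kcnj11, the pore of ATP-sensitive channels, stood at 205, 24.4, 483 and 168. WT SD was the lowest library in both by more than 4-fold. Kcnq3, a subunit of the M-current that steadies excitability, stood at 6303 in WT BL and 2308 in WT SD (-1.45, corrected -0.81). Kcnk2, a leak channel, was 0.86 higher (corrected 1.35), and Kcnn2, a small-conductance calcium-activated channel, 0.76 (corrected 1.06). The BK pore gene Kcnma1, with the values given at the opening, differed by -1.79 in wildtype (corrected -1.23), both knockout values lying between the wildtype ones. The neuronal auxiliary subunit Kcnmb4 stood at 1130, 3018, 1916 and 1744, 1.42 higher (corrected 0.98).

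GABA signalling had 10 of 18 genes lower and 2 higher as deposited and 4 lower and 2 higher when corrected (medians -0.63 and -0.33). The receptor subunit Gabrb2 stood at 1282, 94.4, 625 and 996 normalised counts in WT BL, WT SD, KO BL and KO SD. Its relative Gabrb1 stood at 633, 2248, 394 and 667. Both code for beta subunits, and they went in opposite directions, -3.75 against 1.83 (corrected -3.49 and 2.34). Gabra2, an alpha subunit, was lower (-1.84), as was Gabbr2 of the GABA-B receptor (-1.40). The synthetic enzymes Gad1 and Gad2 were at 15450 in WT BL and 12720 in WT SD and at 5348 in WT BL and 3437 in WT SD, -0.28 and -0.64.

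Glutamate receptors had 11 of 22 lower and 2 higher as deposited, but 4 lower and 1 higher when corrected. Grin2a, a subunit of mature NMDA receptors, stood at 282, 48.9, 207 and 138.5 normalised counts in WT BL, WT SD, KO BL and KO SD, -2.51 (corrected -2.13). Gria4 was lower at 3352 in WT BL and 1277 in WT SD. Gria1 and Gria2, subunits of the main AMPA receptors, were lower as deposited (-0.84 and -0.76) and within 1.5-fold when corrected (-0.36 and -0.31). Grik5 and Grin2c were the higher ones, at 0.81 and 0.78, and only 1 of the 2 was also past 1.5-fold when corrected. With GC content alone removed they were at -0.083 and -0.036.

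Of 24 receptors for the arousal transmitters 14 were lower and 1 higher as deposited, and 7 lower and 4 higher when corrected (medians -0.69 and -0.43). Htr2a, the cortical serotonin receptor, stood at 180.2, 3.4, 97 and 174 normalised counts in WT BL, WT SD, KO BL and KO SD. Chrm3, a muscarinic acetylcholine receptor linked to REM sleep in mice, stood at 1233, 38.9, 1084 and 493.5. In both, WT SD was below 0.25 of every other library. The WT SD value of Htr2a rests on few reads, 1 read being 1.111 in that library. Adrb1, a noradrenaline receptor in which a human variant goes with short sleep, stood at 1103, 491, 1040 and 819. Adra1d stood at 279.7, 66.7, 611 and 259. Both had the sleep-deprived pool below the baseline pool in either genotype, at -1.17 and -2.05 in wildtype and -0.34 and -1.23 in knockout. The knockout difference of Adrb1 was within 1.5-fold. Adra2c was the higher receptor, at 349 in WT BL and 999 in WT SD (1.51, corrected 0.69). The orexin receptors Hcrtr1 and Hcrtr2 had means under 50 and were not compared.

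Peptide receptors had 4 of 17 higher and 6 lower, and 3 higher and 5 lower when corrected, and split within families. Sstr1, a somatostatin receptor, stood at 137, 3.33, 189 and 101 normalised counts in WT BL, WT SD, KO BL and KO SD. Sstr2 stood at 257, 630, 716 and 715. Sstr4 stood at 99.85, 14.4, 151.5 and 121. The wildtype difference was 1.29 for Sstr2 and -4.99 and -2.71 for Sstr1 and Sstr4, the WT SD value of Sstr1 resting on about 3 reads (95% counting interval -7.66 to -3.78). The opioid receptors Oprd1 and Oprl1 were lower (-2.81 and -1.24) and Oprk1 higher (1.19), the last from 28.7 to 66.95. Of 14 adenosine genes, whose product builds up in waking brain, 4 were higher and 3 lower, shares near those of all genes. When corrected, 1 was higher and 3 lower, and the median was -0.034 as deposited and 0.147 corrected. The receptor Adora1, the only higher gene when corrected, stood at 8914, 13870, 10100 and 10610, 0.64 higher in wildtype (corrected 1.01). Nt5e, which makes adenosine outside cells, was lower (-1.12, corrected -0.57), and Adk, which clears it, was level at 2482 in WT BL and 2439 in WT SD.

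Genes of vesicle release held 13 of 38 lower and 2 higher as deposited and 6 of each when corrected. Rims2, an organiser of the active zone, stood at 1476, 309.5, 1314 and 1563 normalised counts in WT BL, WT SD, KO BL and KO SD, -2.25 (corrected -1.64). Its paralogue Rims1 was lower too (-1.20, corrected -0.57). Vamp2, the SNARE of synaptic vesicles, stood at 52610, 30670, 64280 and 44170. Its difference of -0.78 was -1.66 when corrected. Cplx3 and Rab3a were the higher members (0.74 and 0.68), and only 1 of the 2 was also past 1.5-fold when corrected.

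Large adhesion and scaffold genes held 21 of 48 lower and 1 higher as deposited, and 12 lower and 6 higher when corrected. Dlg2, the scaffold PSD-93, stood at 5173, 367, 3757 and 5498 normalised counts in WT BL, WT SD, KO BL and KO SD. Dscaml1, an adhesion protein, stood at 471, 33.3, 897.5 and 362. Lrrc7, the scaffold densin, stood at 533, 49.85, 474.5 and 507. In these 3 WT SD was below 0.25 of any other library. Dlg4, the scaffold PSD-95, stood at 20950, 15960, 33860 and 21760, with a difference of -0.39 (corrected -1.05). Nrxn3, a presynaptic adhesion protein of a very long gene, was not lower, at 0.30 (corrected 0.75), and Ntm, a GPI-anchored adhesion protein, was the higher member (0.72).

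Neuropeptides and granins were on the higher side, 15 of 24 higher and 2 lower (median 0.89), and the count was 13 and 2 when corrected (median 0.80). With the trends in GC content and longest transcript removed instead, 10 were higher and 4 lower, and the median was 0.43, under 1.5-fold. Tac1, the substance P precursor, stood at 146, 669, 298 and 314 normalised counts in WT BL, WT SD, KO BL and KO SD. Crh, the stress peptide, stood at 279, 751, 248 and 453, and Cort, the somatostatin relative cortistatin, which promotes slow-wave sleep in rodents, at 23, 231, 66.3 and 66.7. All 3 had WT SD highest, by 2.19, 1.42 and 3.27 over WT BL (corrected 1.92, 1.29 and 1.77). Sst and Cck stood at 2619, 9081, 5742 and 3581 and at 7214, 20750, 9265 and 6729. Their differences were 1.79 and 1.52 as deposited and 0.25 and 0.03 when corrected. In knockout the sleep-deprived pool was below the baseline pool for both, within 1.5-fold for Cck. Pcsk1n, an inhibitor of peptide processing, stood at 526, 8710, 2507 and 1281 (4.05, corrected 3.85). Pam, the enzyme that amidates peptides and has a long transcript, was lower, at 10770 in WT BL and 5390 in WT SD (corrected difference -0.96), as was the convertase Pcsk2 (-0.77, corrected -0.23). Pvalb, the marker of fast interneurons, stood at 2157, 9107, 2619 and 3104, beside inhibitory neuron markers of which 4 of 12 were higher and 3 lower. The part of the mix of interneurons in the peptide values was not tested.

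**Figure D4:**
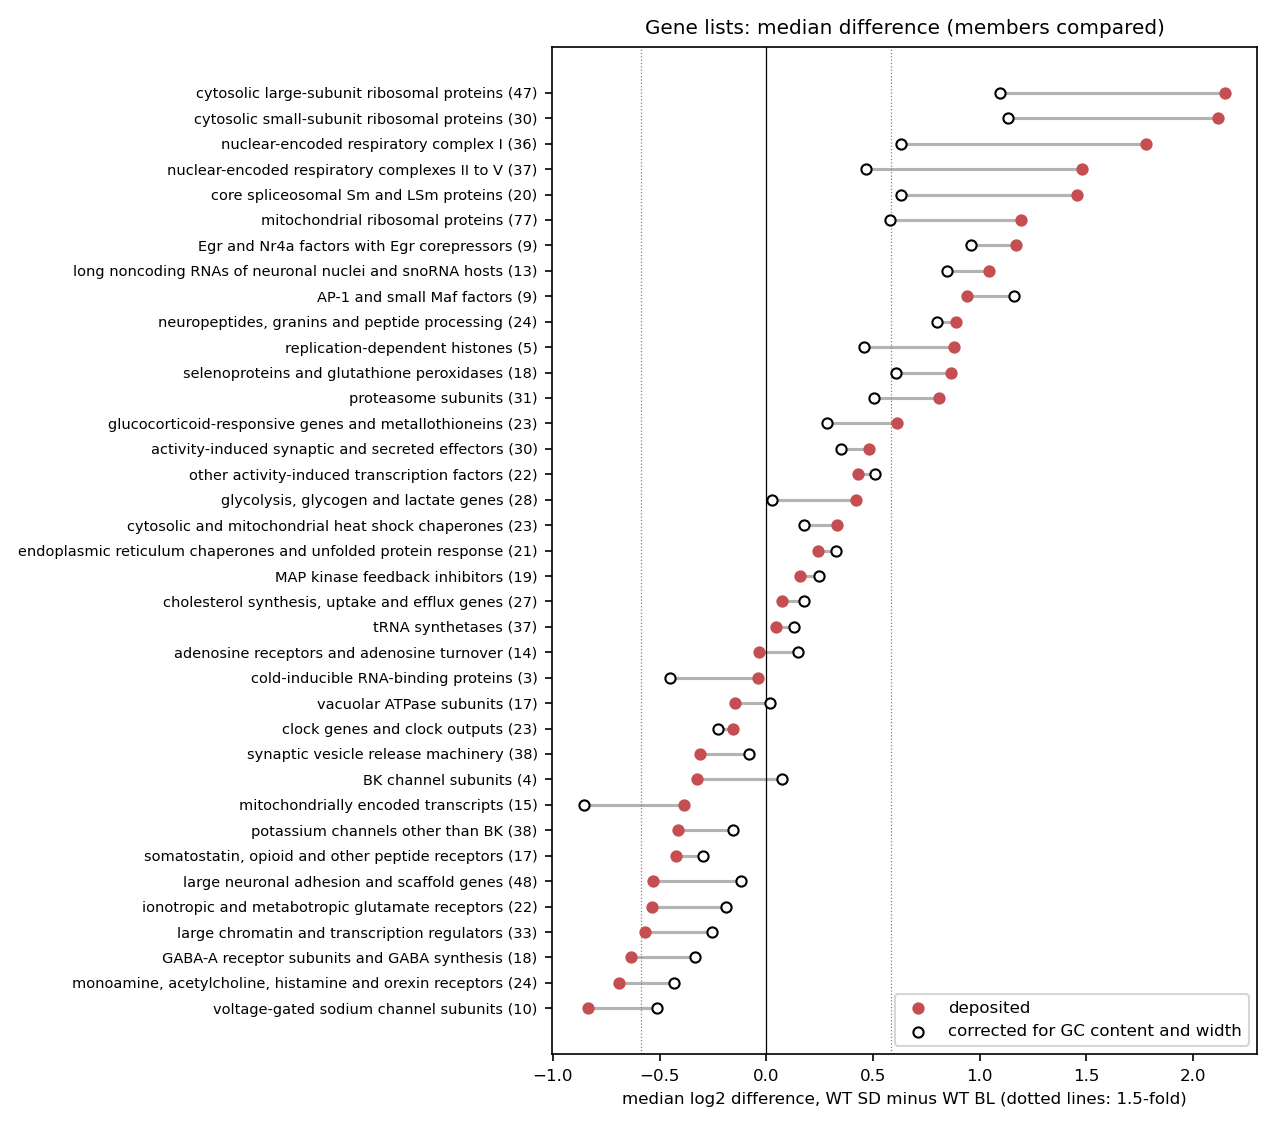
Median log2 difference of WT SD minus WT BL for 37 gene lists with at least 3 compared members (number in parentheses), as deposited (filled red) and corrected for GC content and width (open). The correction draws most medians toward 0, the ribosomal lists from 2.15 and 2.12 to 1.10 and 1.13. The median goes from 0.94 to 1.16 for AP-1 factors, from 1.17 to 0.96 for Egr and Nr4a factors and from 0.89 to 0.80 for neuropeptides.

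Of 13 long noncoding RNAs and hosts of small nucleolar RNAs 8 were higher and 2 lower as deposited, and 7 higher and 2 lower when corrected (medians 1.04 and 0.85). Among the hosts, whose introns carry the small RNAs, Gas5 stood at 2676, 9908, 2890 and 4815 normalised counts in WT BL, WT SD, KO BL and KO SD, Snhg1 at 135.5, 474, 163 and 277 and Snhg12 at 451, 1892, 487.5 and 691. The wildtype differences were 1.89, 1.80 and 2.07 (corrected 1.25, 2.14 and 1.01). A pair of long nuclear RNAs was lower. Malat1, of nuclear speckles, stood at 6555, 2840, 7116 and 5937, and Rian, from the imprinted Dlk1-Dio3 region, at 8626, 3496, 6840 and 11760. Meg3, of the same region as Rian, stood at 14580, 19090, 32980 and 42470, 0.39 in wildtype, with both knockout values above both wildtype values. Neat1, of nuclear paraspeckles, differed by 0.55 as deposited and 1.17 when corrected. Rn7sk was the only small structural RNA compared, at 92.8, 252, 113 and 36.8. Of 5 replication-dependent histones 3 were higher and none lower, and 2 and none when corrected, led by Hist1h2bc at 661 in WT BL and 2292 in WT SD. Of 21 Hox genes found, 14 were listed at 0 in both wildtype libraries, and only Hoxd8 and Hoxd9, patterning genes of the trunk and limbs, had a mean over 50, with 1.15, 138, 58.85 and 78.1 for Hoxd8 and 0, 229.7, 119 and 87.2 for Hoxd9. WT BL was the low library for both, the other 3 lying between 58.85 and 229.7, and no difference is given for Hoxd9.

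Chromatin regulators with long transcripts had 16 of 33 lower and 2 higher as deposited and 7 lower and 8 higher when corrected. Crebbp, an acetyltransferase that works with CREB, stood at 344, 62.6, 412 and 406 normalised counts in WT BL, WT SD, KO BL and KO SD. Its paralogue Ep300 stood at 1277, 1177, 1433 and 1286. Crebbp was lower in WT SD (-2.44, corrected -1.97), and Ep300 was within 1.5-fold (-0.12). Setd1b, a histone methyltransferase, stood at 242, 33.5, 408 and 228, whereas Setd1a differed by -0.30. Chd7, a chromatin remodeller, was higher (0.99).

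In metabolism, glycolytic genes held 9 of 28 higher and 3 lower (median 0.42), but 4 and 2 when corrected (median 0.03). Ldhb, a subunit of lactate dehydrogenase, stood at 19480, 41650, 22300 and 19810 normalised counts in WT BL, WT SD, KO BL and KO SD (1.10, corrected 0.52). Ppp1r3c, which targets a phosphatase to glycogen in astrocytes, stood at 2139, 4135, 1511 and 4488. It was 0.95 higher in wildtype (corrected 1.42) and 1.57 in knockout. Pgam1 was lower in both genotypes, at 19960, 9638, 20730 and 13200. Cholesterol genes had 8 of 27 higher and 5 lower as deposited, and 8 higher and 7 lower when corrected. Apoe, the lipid carrier of astrocytes, stood at 22730, 90680, 40570 and 36250 (2.00, corrected 0.66), and Stard4, a carrier of sterols, at 1133, 360.3, 788 and 1040 (-1.65, corrected -1.39). Selenoproteins, peroxidases and superoxide dismutases, which clear oxidants, were higher in 12 of 18 with none lower, and in 9 with none lower when corrected (median 0.87, corrected 0.61). Gpx1 stood at 1013, 4712, 1766 and 1758, and Prdx5 at 3719, 13280, 6259 and 4696. Both were past 1.5-fold when corrected (1.34 and 1.14), and Sod1, 1.91 higher, was just past it (0.63). Sod2, the mitochondrial relative of Sod1, was level at 4543 in WT BL and 4505 in WT SD.

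Markers of single cell types were not uniform within their lists. In microglia 7 of 12 were higher and none lower as deposited and 6 and none when corrected. With the trends in GC content and longest transcript removed instead, 2 were higher and none lower, and the median was 0.01 against 0.98 as deposited. The receptor genes Csf1r, P2ry12 and Cx3cr1 differed by -0.43, -0.10 and 0.16 against 2.21 for the short Aif1 and 1.69 and 1.61 for the complement genes C1qa and C1qb. In oligodendrocytes 5 of 12 were higher and none lower, and 6 and none when corrected, around a median of 0.53, and Ermn stood at 456.5 in WT BL and 415 in WT SD. In astrocytes 4 of 12 were higher and 2 lower as deposited, and 5 higher and 0 lower when corrected (medians 0.28 and 0.12). Sox9 and S100b were higher (1.35 and 1.28). Aqp4, the water channel, was lower as deposited (-1.01) and within 1.5-fold when corrected (-0.47). In endothelium 5 of 10 were lower and 1 higher as deposited and 2 lower and 1 higher when corrected. Cldn5, a short gene of tight junctions, was the only higher one (1.70), and Cdh5, of adherens junctions, was lower (-1.56). Of 5 red cell genes 2 were lower and 1 higher as deposited, but 5 were lower when corrected (medians -0.53 and -2.15), and the median of the knockout pair was -2.10. Alas2, which starts haem synthesis, stood at 671.5, 110, 516 and 107 normalised counts in WT BL, WT SD, KO BL and KO SD. Of 12 genes of pericytes, smooth muscle and meninges 5 were lower and none higher, and 4 and none when corrected. Slc47a1, an organic cation exporter of meninges, stood at 689.6, 113, 495.5 and 116, and Igf2, a growth factor made there, at 5146, 1420, 4014 and 1688. Both were lower in the sleep-deprived than in the baseline pool of either genotype.

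Across all 8177 named protein-coding genes with a mean of at least 500, 1027 were higher and 803 lower in both versions. Ranked by the smaller of both differences, the first of the higher genes were Lrrc17, Pcsk1n, Gp1bb, Ndufb7 and Ndufa11. Lrrc17, a secreted leucine-rich repeat protein, stood at 2163, 33610, 2733 and 7560 normalised counts in WT BL, WT SD, KO BL and KO SD. Gp1bb, known as a platelet glycoprotein subunit, stood at 295, 10290, 338 and 548. Adamts13, a protease known for cleaving von Willebrand factor, was also among the 15, at 493, 2259, 654 and 850.3. D17H6S56E-5, Rpsa, Gadd45gip1, Rps20, Timm13, Atp5e, Rps7, Mrpl33 and Cox17 made up the rest, mostly small proteins of the ribosome and mitochondria. Their WT SD values were the highest of the 4 libraries in every case. Of the 15, Lrrc17, Pcsk1n, Gp1bb, Ndufa11, Rpsa, Gadd45gip1, Rps20, Timm13 and Cox17 share exons with other annotated genes, so their reads are less surely assigned. D17H6S56E-5 and Mrpl33 are not in the annotation used, and Ndufb7, Atp5e, Rps7 and Adamts13 share no exon.

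The first of the lower genes had more varied roles. Gpam, which starts triglyceride synthesis, stood at 799, 19.99, 766 and 823 normalised counts in WT BL, WT SD, KO BL and KO SD. Lyst, which controls lysosome size, stood at 787, 16.7, 708 and 609. In both the WT SD value was the only low one. Ntrk3, the receptor of neurotrophin-3, stood at 900.3, 33.3, 1094 and 608, and Dag1, which codes for dystroglycan, at 1868, 84.5, 2300 and 1237. Nav3, Pcdh9, Syt17, Rimbp2, Ankrd45, Rapgef5 and Mark4 had WT SD values from 34.4 (Pcdh9) to 51.1 (Ankrd45), against values from 650.0 (Mark4) to 1508 (Nav3) in WT BL. Srp54a, of the signal recognition particle, and Snurf, of the imprinted Snrpn locus, belong to the same 15 and were listed at 0 in WT SD, so that no difference is given.

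**Figure D5:**
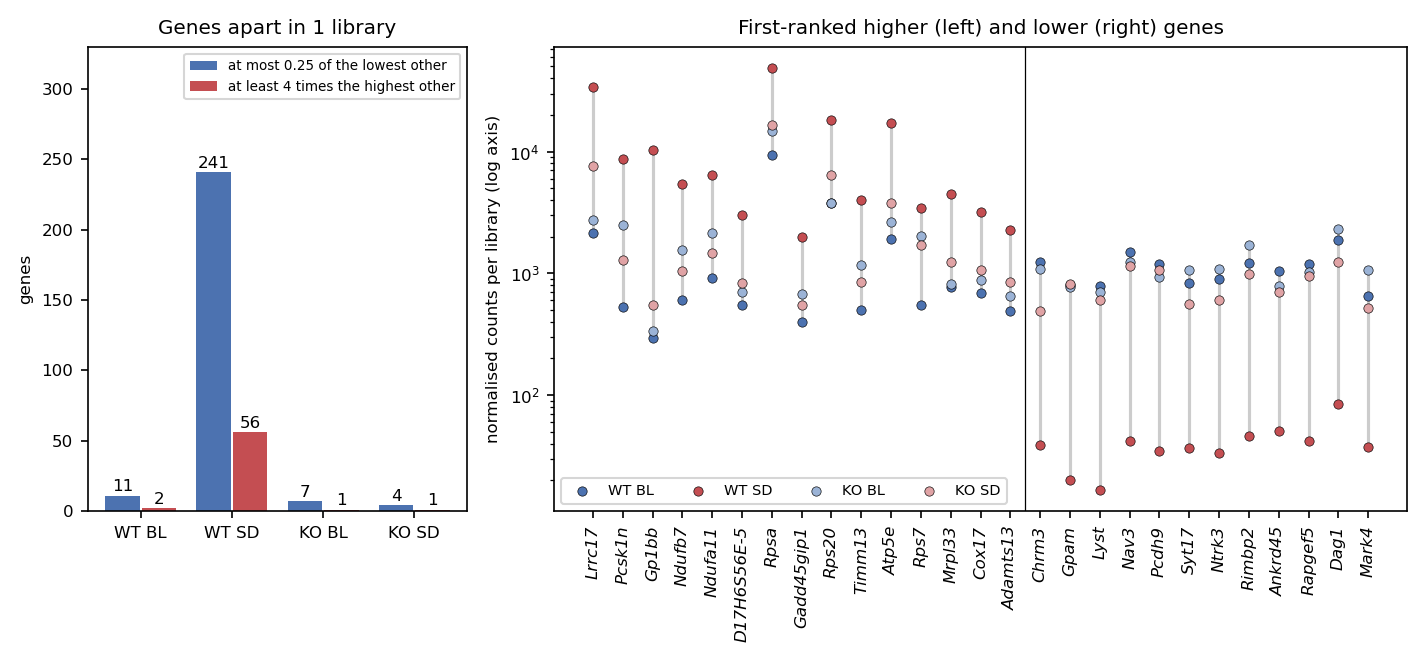
Left, number of genes that stood at 0.25 or less of the lowest (blue) or 4 times or more of the highest (red) of the other 3 libraries, for each library. Right, normalised counts (log axis) in the 4 libraries of the 15 highest-ranked higher and 12 highest-ranked lower genes named here that were above 0 in all libraries; the WT SD points lie outside the range of the other 3 in every column.

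In all, 21 genes were listed at 0 in exactly 1 wildtype library with at least 200 normalised counts in the other, 11 at 0 in WT SD and 10 in WT BL, and 12 of them were pseudogenes. Srp54a stood at 2563, 0, 1829 and 1763 normalised counts in WT BL, WT SD, KO BL and KO SD, while its near-identical relatives Srp54b and Srp54c stood at 1606 and 1753 and at 3648 and 3980 in WT BL and WT SD. Snurf, whose coding sequence lies in the same locus as Snrpn, stood at 603, 0, 1411 and 1003, with Snrpn at 34260 in WT BL and 39270 in WT SD. Gm5641, a pseudogene, stood at 3427, 0, 2903 and 2666. Eif4ebp3, a repressor of translation, stood at 0, 230.2, 9.04 and 13.3, and shares an exon with another gene. A value of 0 here is what the authors' estimate lists, and reads shared between near-identical genes may have been divided among them.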

How the data were processed

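Total RNA of cortex, pooled over 4 animals per group, was sequenced as 1 library per group. The submitters' processing notes name RSEM 1.2.19, an expression estimator, edgeR, a package for count data, and mouse build GRCm38 (mm10), with no role or order; how the values were normalised is not given in the sources used here. The deposited per-gene values are a normalised signal on a count scale, with GC content as a fraction and width in bp beside each gene. The ratio and false discovery columns of the deposited table were not used.

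From these values, log2 of the value plus a pseudocount of 1 was compared between WT SD and WT BL for 13550 genes averaging 50 or more. The corrected difference is the residual of a loess surface on GC content and log width (span 0.3, degree 2, R 4.3.3). Simulated libraries with trends set in these same properties were also run through it, which cannot show how it handles other trends. Counting intervals are exact binomial at 95%. With 1 library per group no test was run. Gene overlap and transcript lengths came from GENCODE M21 (GRCm38). Reads of overlapping genes are less surely assigned: of 249 genes named, 82 share an exon with another gene. The 14 symbols that a spreadsheet had changed to dates were handled through their gene identifiers.

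Genes named are members of 39 gene lists and 13 marker lists, the 15 genes at each end of the ranking by the smaller of both differences (mean at least 500), and genes at 0 in 1 wildtype library and at least 200 in the other. The members and lists were chosen with earlier results of these data known. Some single genes were picked within the lists for their values. Alternatives covered scaling, filter, pseudocount, threshold, trend terms and gene models. A few genes are not reported here.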

Additional observations from a re-analysis of the deposited data

Results flagged for a closer look

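Of 13503 compared genes above 0 in all libraries, 44 were at least 2-fold higher in WT SD than in WT BL and at least 2-fold lower in KO SD than in KO BL, and 58 the reverse, while 91 were 2-fold higher and 96 lower in both pairs. Corrected for GC content and width, the opposite genes numbered 3 and 15. Of the genes named above, 5 were opposite in this way. The difference between the genotypes was not tested, since each group has 1 library. Junb, the AP-1 subunit, differed by 2.09 in wildtype and -1.42 in knockout (corrected 1.26 and -0.72). Dusp2, the ERK phosphatase, differed by 1.73 and -1.04 (corrected 1.18 and -0.64). Rn7sk, the small nuclear RNA that holds back transcription elongation, differed by 1.43 and -1.60, but corrected it was lower in both pairs, at -0.78 and -1.31. Aqp4, the astrocyte water channel, differed by -1.01 and 1.35 (corrected -0.47 and 0.70). Dnajb9, the co-chaperone of the endoplasmic reticulum, differed by -1.17 and 1.04 (corrected -0.98 and 0.25).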

How the results depend on the processing

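The counts of higher and lower genes (3321 and 3259) stayed within 1.5 times under both scalings to equal totals, median-of-ratios scaling, other pseudocounts, mean minimums of 20 and 200 and every trend correction. With no filter they were 6425 and 6117, and with a 2-fold threshold 1931 and 1480. Over the 8372 genes with no shared exon, a symbol listed once and no library at 0, they were 2013 and 2065. In these settings fewer or more genes were counted by construction. The rank correlation with GC content (0.33) was 0.006 after the trend in both properties was removed and -0.001 after GC content alone. That with width (-0.49) was -0.029 with both removed, -0.010 with width alone removed and -0.337 with no filter. By construction, a removed trend leaves little correlation with the property removed. Transcript length was not among the properties removed. Over 12751 protein-coding genes the corrected difference still had a rank correlation of -0.19 with the longest annotated transcript (-0.534 as deposited). It was -0.145 with the longest 3' UTR (-0.444 as deposited) and -0.239 with the longest transcript over the deposited width (-0.055 as deposited).

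Some directions turned when a trend was removed. For Rn7sk, the only compared member of the small structural RNAs, the difference was -0.783 with GC content and width removed, -0.725 with width alone and -1.248 with GC content and longest transcript, an alternative chosen after seeing the data. With that last alternative C1qa was at -0.042, Cck at -0.457, Rab3a at -0.201, Rps3a1 at -0.079 and Sst at -0.144. The medians of AP-1 factors, of Egr and Nr4a factors and of neuropeptides were 0.817, 0.811 and 0.432 with it. With GC content alone removed Grik5 was at -0.083 and Grin2c at -0.036. With width alone removed mt-Co3 was at -0.243 and mt-Nd3 at -0.766. The cause was not tested.

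The trends with width and GC content, the genes that stand apart in WT SD and the single pool per group all limit these values. For a single pool no spread can be given, so that no difference here can be set against variation between animals or library preparations. No paired analysis was possible because each group has 1 library.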
